A study of Mus musculus with 12 samples.

Results

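The 34 genes described here code for enzymes, carriers and regulators of fatty acid oxidation and ketone body metabolism. They were taken by name from the pathway, out of 35688 genes measured in mouse colon RNA, with earlier results of these data known. All 34 were found in the table, on 15 chromosomes. The libraries came from 6 Il10-/- Tnfr1-/- mice and 5 Il10-/- mice, all 2 weeks old, with 1 whole colon per library. The labels give the Il10-/- Tnfr1-/- mice as deficient in interleukin 10 and TNF receptor 1, and the Il10-/- mice as deficient in interleukin 10, so both groups carry the Il10 genotype. No wild-type colon was analysed here. The labels do not state strain, sex, litter or how either allele was made. Colons were taken at full thickness, so muscle, stroma, nerve and immune cells contributed RNA beside the epithelium. In such bulk samples, fewer cells of a type and less RNA per cell cannot be told apart.

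Fatty acids are first joined to coenzyme A, then carried into mitochondria on carnitine, and shortened there by repeated rounds of dehydrogenation, hydration, a second dehydrogenation and thiolytic cleavage. Electrons from the first dehydrogenation pass through the electron transfer flavoproteins to the respiratory chain. Ketone bodies are made from the resulting acetyl-CoA, or are taken up and turned back into it. Colon epithelium is known for its use of butyrate, a short-chain fatty acid from bacteria, and in suckling mice for ketone body synthesis from milk fat. The nuclear receptor PPAR alpha and the coactivator PGC-1 alpha are known activators of many of these genes.

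The values are abundances per transcript, divided by transcript length and scaled between libraries by the authors, and summed here per gene. They are not counts, so the sequencing depth behind them is unknown. The total of a library lay between 804109 and 1378971. Transcripts listed at 0 made up 41.7% to 55.1% of a library. Tnfrsf1a, the gene of TNF receptor 1, lay between 12.0 and 17.0 in Il10-/- Tnfr1-/- libraries and between 30.6 and 78.1 in Il10-/- libraries, without overlap. Il10 transcripts were present in all 11 libraries, at 3.27 to 7.23 in Il10-/- Tnfr1-/- libraries and at 9.06 to 22.9 in Il10-/- libraries, also without overlap (log2 fold change -1.44 ± 0.28, SE, unadjusted p = 0.000226, adjusted p = 0.536, limma). The labels do not say which exons either allele removes, so the remaining transcripts of both genes do not check whether the proteins are missing. The p-values given here measure only the spread between these libraries, 1 per animal, in which animal and library effects cannot be told apart.

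Like all genes tested, the 34 genes more often had higher than lower mean levels in Il10-/- Tnfr1-/- colons, but by little. Of the 34 genes, 21 had a higher mean log2 level and 13 a lower one, beside 55.5% of the 13561 genes tested with a higher mean and 44.5% with a lower one. The median log2 fold change was 0.14 over the 34 genes and 0.05 over all genes tested. With limma and Benjamini-Hochberg adjustment over all genes, no member passed an adjusted p of 0.05, and 0 of 13561 genes (0.0%) did. The smallest adjusted p was 0.536 for a member and 0.125 for any gene. At an unadjusted p under 0.05, 5 members were higher in Il10-/- Tnfr1-/- colons, namely Acadm, Etfdh, Hadhb, Eci2 and Ehhadh, beside 4.74% of all genes. At the same threshold 0 members were lower, beside 3.6% of all genes. The 5 are 14.7% of the 34, and over all genes 1131 (8.34%) passed that threshold in either direction. Scaled to equal library totals, which moves the all-gene median to 0.19 on the log2 scale, 29 of the 34 genes and 69.6% of all genes had a higher mean, and 9 members had an unadjusted p under 0.05 and a higher mean, beside 5.1% of all genes. Of the genes with a lower mean on the deposited scale, Cpt1b, Slc25a20, Acadvl, Acad9, Acad10, Hsd17b10, Decr1 and Acaa1a turn positive there. With median-ratio factors 19 of the 34 had a higher mean, beside 48.6% of all genes, Slc22a5 and Acads turn negative, and 2 members were higher at that unadjusted threshold, beside 3.59% of all genes. Without Il10-/- Tnfr1-/- replicate 1 or Il10-/- replicate 3, 1 member was left at that unadjusted threshold, beside 3.36% and 7.92% of all genes. Without Il10-/- Tnfr1-/- replicate 2, Il10-/- replicate 5 or Il10-/- replicate 6 there were 2, beside 1.86% to 5.14% of all genes, and without Il10-/- Tnfr1-/- replicate 3 or 6 there were 3, beside 2.94% and 5.8%.

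**Figure D1:**
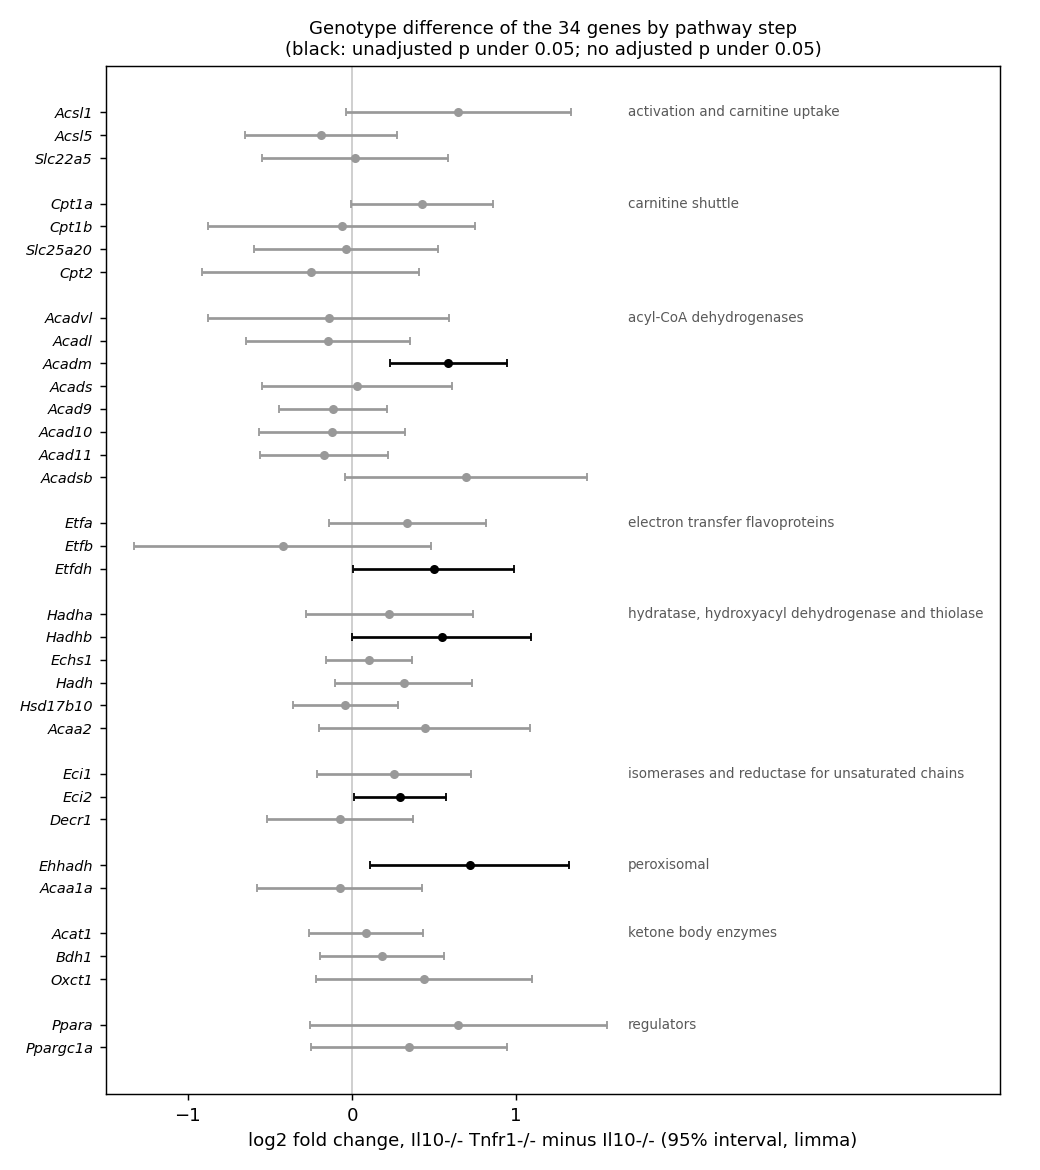
Log2 fold change of each of the 34 genes on the log2(value + 0.5) scale, Il10-/- Tnfr1-/- minus Il10-/-, with its 95% interval from limma, ordered by pathway step. The intervals of Acadm, Etfdh, Hadhb, Eci2 and Ehhadh, in black, lie above 0, and those of the other 29 genes include 0.

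Several libraries stood apart, and the results below are given with this in view. Il10-/- replicate 1 was the lowest of the 11 libraries for 14 of the 34 genes, among them Acaa2, Acadvl, Hadhb, Hadha, Eci1, Eci2, Echs1 and Ppara. Il10-/- replicate 6 was the lowest for 10 genes, including Acadm, Cpt1a, Ehhadh and Etfdh. The same library was the highest for 7 others, Etfb, Acadvl, Acsl5, Decr1, Cpt2, Acad10 and Acaa1a. Il10-/- Tnfr1-/- replicate 6 was the highest for 10 genes, including Cpt1a, Etfa, Slc25a20, Acaa2 and Bdh1. Relative to each gene's mean over the 11 libraries, the median of the 34 genes was 0.29 in Il10-/- Tnfr1-/- replicate 6 and -0.39 in Il10-/- replicate 1 on the log2 scale. With Il10-/- replicates 1 and 6 both left out, a choice made after the data were seen, 23 of 34 genes had a higher mean, beside 58.4% of all genes, and 1 had an unadjusted p under 0.05, beside 4.37% of all genes.

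**Figure D2:**
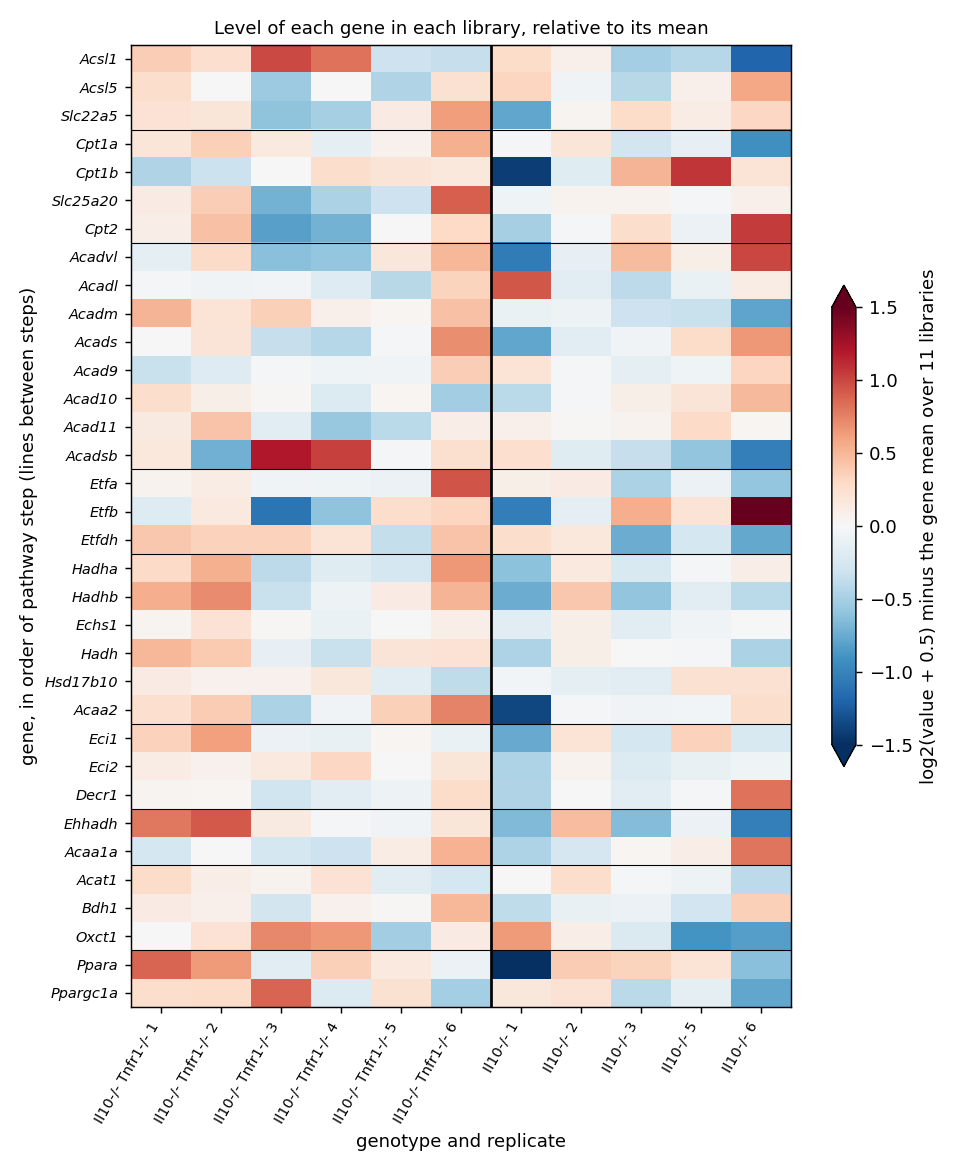
Level of each gene in each library as log2(value + 0.5) minus the gene's mean over 11 libraries, with genes down the side by pathway step, 6 Il10-/- Tnfr1-/- libraries on the left and 5 Il10-/- libraries on the right. Il10-/- replicate 1 holds the lowest value of 14 genes, and Il10-/- replicate 6 holds both the lowest value of 10 genes and the highest of 7.

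Each sample's title starts with a digit from 1 to 4 whose meaning the labels do not give. Titles starting with 2 or 3 belong to Il10-/- Tnfr1-/- mice and those starting with 4 to Il10-/- mice, so there the digit and the genotype cannot be told apart. Within titles starting with 1, which cover 2 Il10-/- Tnfr1-/- and 3 Il10-/- mice, 29 of the 34 genes had a higher mean in the Il10-/- Tnfr1-/- mice, beside 43.6% of all genes. The median log2 fold change there was 0.29 for the 34 genes and -0.04 for all genes. At an unadjusted p under 0.05 (limma), 1 member, Ehhadh, was higher, beside 0.472% of all genes.

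The activation step joins fatty acids to coenzyme A. Acsl1, a long-chain acyl-CoA synthetase on chromosome 8 (46471037 to 46536051, plus strand, mm10), was at 8.60, 7.89, 13.6, 11.9, 5.22 and 5.08 in Il10-/- Tnfr1-/- colons. In Il10-/- colons Acsl1 was at 8.08, 6.96, 4.47, 4.76 and 2.60. The groups overlapped, with 3 Il10-/- Tnfr1-/- libraries above every Il10-/- library, and the log2 fold change was 0.65 ± 0.31 (SE, unadjusted p = 0.0614, limma). The 2 highest libraries, Il10-/- Tnfr1-/- replicates 3 and 4, also had the highest summed smooth muscle markers, 8021 and 7177, against 829.01 to 2856 in the other Il10-/- Tnfr1-/- libraries and 185 to 3506 in Il10-/- libraries. A fit that includes the smooth muscle marker score gave Acsl1 a log2 fold change of 0.24. Acsl5, the synthetase more abundant in this tissue, averaged 87.8 ± 19.8 in Il10-/- Tnfr1-/- colons and 101 ± 25.8 in Il10-/- colons (SD, n = 6 and 5), with overlap. Slc22a5, the carnitine importer of the cell membrane, averaged 18.2 ± 5.86 in Il10-/- Tnfr1-/- colons and 17.8 ± 4.69 in Il10-/- colons (SD), a log2 fold change of 0.02 ± 0.26 (SE).

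The carnitine shuttle showed no common direction. Cpt1a, the gatekeeping carnitine palmitoyltransferase of the outer mitochondrial membrane, lies on chromosome 19 (3322334 to 3385733, plus strand, mm10). Its 1 annotated transcript in the table was at 68.0, 76.9, 66.2, 54.3, 62.5 and 86.7 in Il10-/- Tnfr1-/- colons. The Il10-/- colons had 58.5, 67.8, 49.4, 54.7 and 31.4. The ranges overlapped, with a difference of 0.43 ± 0.20 (SE, log2), an unadjusted limma p of 0.0528 and an exact two-sided permutation p of 0.0411. Without Il10-/- replicate 6, the lowest library, the log2 fold change was 0.26. Cpt1b, the isoform best known from muscle, was the lowest member, at 2.27 ± 0.537 in Il10-/- Tnfr1-/- colons and 2.79 ± 1.78 in Il10-/- colons (SD).

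Slc25a20, the carrier that exchanges acylcarnitine for carnitine across the inner membrane, spanned 116 to 355 in Il10-/- Tnfr1-/- colons but only 182 to 201 in Il10-/- colons. The 3 lowest of all 11 libraries and the 3 highest were Il10-/- Tnfr1-/- libraries, so the mean hardly differed (log2 fold change -0.04 ± 0.26, SE). Cpt2, which returns the acyl group to coenzyme A inside the mitochondrion, averaged 90.0 ± 29.9 in Il10-/- Tnfr1-/- colons and 109 ± 49.0 in Il10-/- colons (SD), with Il10-/- replicate 6 highest at 192.

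Of the 8 acyl-CoA dehydrogenases, which take the first step of each round for chains of different lengths, 3 had a higher mean in Il10-/- Tnfr1-/- colons and 5 a lower one. Acadm, the medium-chain enzyme on chromosome 3 (153922357 to 153944632, minus strand, mm10), was the member that separated the genotypes. It was at 107, 86.5, 96.4, 78.8, 76.5 and 101 in Il10-/- Tnfr1-/- colons. In Il10-/- colons it was at 70.0, 70.9, 60.6, 59.6 and 43.2. All 6 Il10-/- Tnfr1-/- libraries lay above all 5 Il10-/- libraries, which was so for 0.31% of all genes tested, and 0 members were apart in the other direction, beside 0.265% of all genes. Its mean was 91.0 ± 12.3 in Il10-/- Tnfr1-/- colons and 60.8 ± 11.1 in Il10-/- colons (SD), a log2 fold change of 0.59 ± 0.16 (SE). The unadjusted limma p was 0.00349 and the adjusted p 0.536. The exact two-sided permutation p was 0.00216, the smallest that 462 assignments can give. Over all alternatives run, the log2 fold change of Acadm lay between 0.47 and 0.73. The separation is that of the gene sum. Its most abundant transcript, 84.7% of the gene, overlapped. That transcript was at 58.9 and 58.2 in Il10-/- Tnfr1-/- replicates 3 and 4, below the 67.5 of Il10-/- replicate 2. A retained-intron transcript of 323 bases was at 23.7, 24.9 and 17.1 in Il10-/- Tnfr1-/- replicates 1, 3 and 4. It was at 20.6 in Il10-/- replicate 1 and at 0 in the other libraries.

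The gene sums of the other dehydrogenases did not separate the genotypes. Acadsb, which acts on short branched chains, was at 8.23, 4.27, 17.6, 15.4, 7.27 and 8.73 in Il10-/- Tnfr1-/- colons and at 8.87, 6.40, 5.67, 4.70 and 3.37 in Il10-/- colons. Its log2 fold change was 0.69 ± 0.34 (SE, unadjusted p = 0.0634, limma), was 0.15 with the smooth muscle score in the fit and was -0.19 within titles starting with 1. The transcript annotated as the main protein isoform held 6.13% of the Acadsb sum. A retained-intron transcript held 62.6% and a processed transcript 27.4%. Acadl, the long-chain enzyme, averaged 153 ± 26.5 in Il10-/- Tnfr1-/- colons and 177 ± 72.7 in Il10-/- colons (SD), where Il10-/- replicate 1 alone was at 303. Acads, the short-chain enzyme that acts on butyrate, averaged 140.1 ± 42.8 in Il10-/- Tnfr1-/- colons and 139 ± 49.3 in Il10-/- colons (SD). Acadvl, Acad9, Acad10 and Acad11 had log2 fold changes between -0.17 and -0.12, each with an interval that includes 0.

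The electron transfer flavoproteins differed from each other within single libraries. Etfdh, the oxidoreductase that hands the electrons to ubiquinone, lies on chromosome 3 (79603788 to 79629500, minus strand, mm10). It was at 54.6, 52.3, 52.3, 47.5, 32.1 and 55.4 in Il10-/- Tnfr1-/- colons and at 49.5, 46.0, 24.4, 34.1 and 24.1 in Il10-/- colons. The ranges overlapped, with Il10-/- Tnfr1-/- replicate 5 low among its group. The log2 fold change came to 0.50 ± 0.23 (SE). The unadjusted limma p was 0.0479 and the exact permutation p 0.0736. Etfa and Etfb code for the 2 chains of one heterodimer. Etfa averaged 162 ± 53.8 in Il10-/- Tnfr1-/- colons and 126 ± 27.4 in Il10-/- colons, and Etfb averaged 311 ± 106 in Il10-/- Tnfr1-/- colons and 471 ± 325 in Il10-/- colons (SD). The ratio of Etfa to Etfb was 0.56 ± 0.19 in Il10-/- Tnfr1-/- colons and 0.41 ± 0.32 in Il10-/- colons (SD), with an exact two-sided permutation p of 0.212. It was lowest in Il10-/- replicate 6, at 0.0925, and highest in Il10-/- replicate 1, at 0.917.

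Among the 6 genes of the hydratase, hydroxyacyl dehydrogenase and thiolase steps, 5 had a higher mean in Il10-/- Tnfr1-/- colons. Hadha and Hadhb code for the alpha and beta chains of the mitochondrial trifunctional protein, which does these steps on long chains. They lie head to head on chromosome 5, Hadha on the minus strand (30118304 to 30155162, mm10) and Hadhb on the plus strand (30155248 to 30184593, mm10). Hadhb was at 370, 417, 202, 242, 278 and 363 in Il10-/- Tnfr1-/- colons and at 152, 337, 169, 228 and 192 in Il10-/- colons. The ranges overlapped, with Il10-/- replicates 2 and 5 within the Il10-/- Tnfr1-/- range, and the log2 fold change was 0.55 ± 0.25 (SE, unadjusted p = 0.0496, limma). Hadha averaged 277 ± 84.8 in Il10-/- Tnfr1-/- colons and 231 ± 45.8 in Il10-/- colons (SD), a log2 fold change of 0.23 ± 0.23 (SE). The ratio of Hadhb to Hadha was 1.14 ± 0.141 in Il10-/- Tnfr1-/- colons and 0.925 ± 0.193 in Il10-/- colons (SD), with an exact permutation p of 0.0584. It is a ratio of gene sums, not of the 2 protein chains. Transcripts annotated as the main protein isoform held 7.33% of the Hadha sum, and a processed transcript of 323 bases held 47.5%. In Hadhb, a retained-intron transcript of 425 bases held 22.0%, with a log2 fold change of 2.64 ± 1.16 (SE). The most abundant Hadhb transcript, a coding one, had 0.39 ± 0.25 (SE).

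The 85 bases between the annotated ends of Hadha and Hadhb are shown because both genes start from them. They are from chromosome 5, 30155163 to 30155247, plus strand, RefSeq sequence of build GRCm38.p6, with 2 GC boxes in capitals.
Hadha to Hadhb: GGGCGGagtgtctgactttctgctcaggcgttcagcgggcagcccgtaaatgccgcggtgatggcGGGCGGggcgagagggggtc
Hadh, the short-chain hydroxyacyl dehydrogenase, averaged 234 ± 48.3 in Il10-/- Tnfr1-/- colons and 187 ± 34.1 in Il10-/- colons (SD, log2 fold change 0.31 ± 0.19, SE). Acaa2, the mitochondrial thiolase, averaged 144 ± 39.4 in Il10-/- Tnfr1-/- colons and 109 ± 37.0 in Il10-/- colons (SD), and its lowest library by far was Il10-/- replicate 1 at 46.5. Echs1, the short-chain enoyl hydratase, varied little, with 83.1 ± 6.26 in Il10-/- Tnfr1-/- colons and 77.4 ± 5.81 in Il10-/- colons (SD). Hsd17b10, a hydroxyacyl dehydrogenase that also belongs to mitochondrial RNase P, averaged 63.1 ± 8.65 in Il10-/- Tnfr1-/- colons and 64.9 ± 8.84 in Il10-/- colons (SD).

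Unsaturated fatty acids need isomerases and a reductase besides the main cycle. Eci2, an enoyl-CoA isomerase, lies on chromosome 13 (34977748 to 35027096, minus strand, mm10). It was at 56.1, 54.6, 57.9, 64.5, 51.8 and 59.0 in Il10-/- Tnfr1-/- colons and at 37.6, 54.0, 45.2, 48.0 and 49.9 in Il10-/- colons. All but 1 of the Il10-/- Tnfr1-/- libraries were above the highest Il10-/- library. Its log2 fold change came to 0.29 ± 0.13 (SE), at an unadjusted limma p of 0.0435 and an exact permutation p of 0.00649. Eci1, its mitochondrial relative, had a log2 fold change of 0.25 ± 0.22 and Decr1, the dienoyl-CoA reductase, one of -0.07 ± 0.21 (SE).

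Peroxisomes shorten very long and dicarboxylic chains with their own enzymes. Ehhadh, the peroxisomal bifunctional hydratase and dehydrogenase, lies on chromosome 16 (21761287 to 21787807, minus strand, mm10). It was at 25.4, 27.8, 15.9, 14.3, 13.9 and 16.5 in Il10-/- Tnfr1-/- colons and at 8.98, 20.1, 9.04, 13.6 and 6.88 in Il10-/- colons. Il10-/- replicate 2 overlapped the Il10-/- Tnfr1-/- range, and the other 4 Il10-/- libraries lay below it. The log2 fold change of 0.72 ± 0.28 (SE) was the largest of the 34 genes, with an unadjusted limma p of 0.0241 and an exact permutation p of 0.0498. Acaa1a, a peroxisomal thiolase, averaged 55.4 ± 13.4 in Il10-/- Tnfr1-/- colons and 59.9 ± 22.1 in Il10-/- colons (SD). Its values are uncertain, since reads may be split with its close paralog Acaa1b.

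The 3 ketone body enzymes each had a slightly higher mean in Il10-/- Tnfr1-/- colons, within the spread of the libraries. Acat1, the thiolase that opens ketone body synthesis and closes their breakdown, was at 173, 154, 149, 167, 129 and 119 in Il10-/- Tnfr1-/- colons and at 143, 171, 142, 135 and 109 in Il10-/- colons. The groups overlapped almost wholly, and the log2 fold change was 0.09 ± 0.16 (SE). It was below 0 in 4 of 28 alternatives.

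Bdh1, which interconverts acetoacetate and beta-hydroxybutyrate, was at 105, 101, 79.3, 101, 97.7 and 136 in Il10-/- Tnfr1-/- colons and at 74.1, 89.0, 90.9, 78.9 and 123 in Il10-/- colons. Replicate 6 was the highest library of each genotype, and the log2 fold change was 0.18 ± 0.17 (SE, unadjusted p = 0.315, limma). Oxct1, the transferase that lets tissues outside the liver burn ketone bodies, was at 62.6, 72.3, 103, 98.2, 43.5 and 68.2 in Il10-/- Tnfr1-/- colons and at 97.7, 66.9, 53.6, 33.3 and 35.05 in Il10-/- colons. Its log2 fold change was 0.44 ± 0.30 (SE, unadjusted p = 0.173, limma), was 0.05 with the smooth muscle score in the fit and was -0.07 within titles starting with 1.

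The regulators were among the 4 genes of lowest level per length. Ppara was at 6.91, 5.82, 3.12, 4.71, 3.9996 and 3.31 in Il10-/- Tnfr1-/- colons and at 0.477, 4.79, 4.59, 4.17 and 2.12 in Il10-/- colons. PPAR alpha itself is its product. Il10-/- replicate 1 was far below the rest. With that library the log2 fold change came to 0.65 ± 0.42 (SE), and without it to 0.22. Ppargc1a, the gene of PGC-1 alpha, averaged 3.69 ± 1.40 in Il10-/- Tnfr1-/- colons and 2.76 ± 0.889 in Il10-/- colons (SD).

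**Figure D3:**
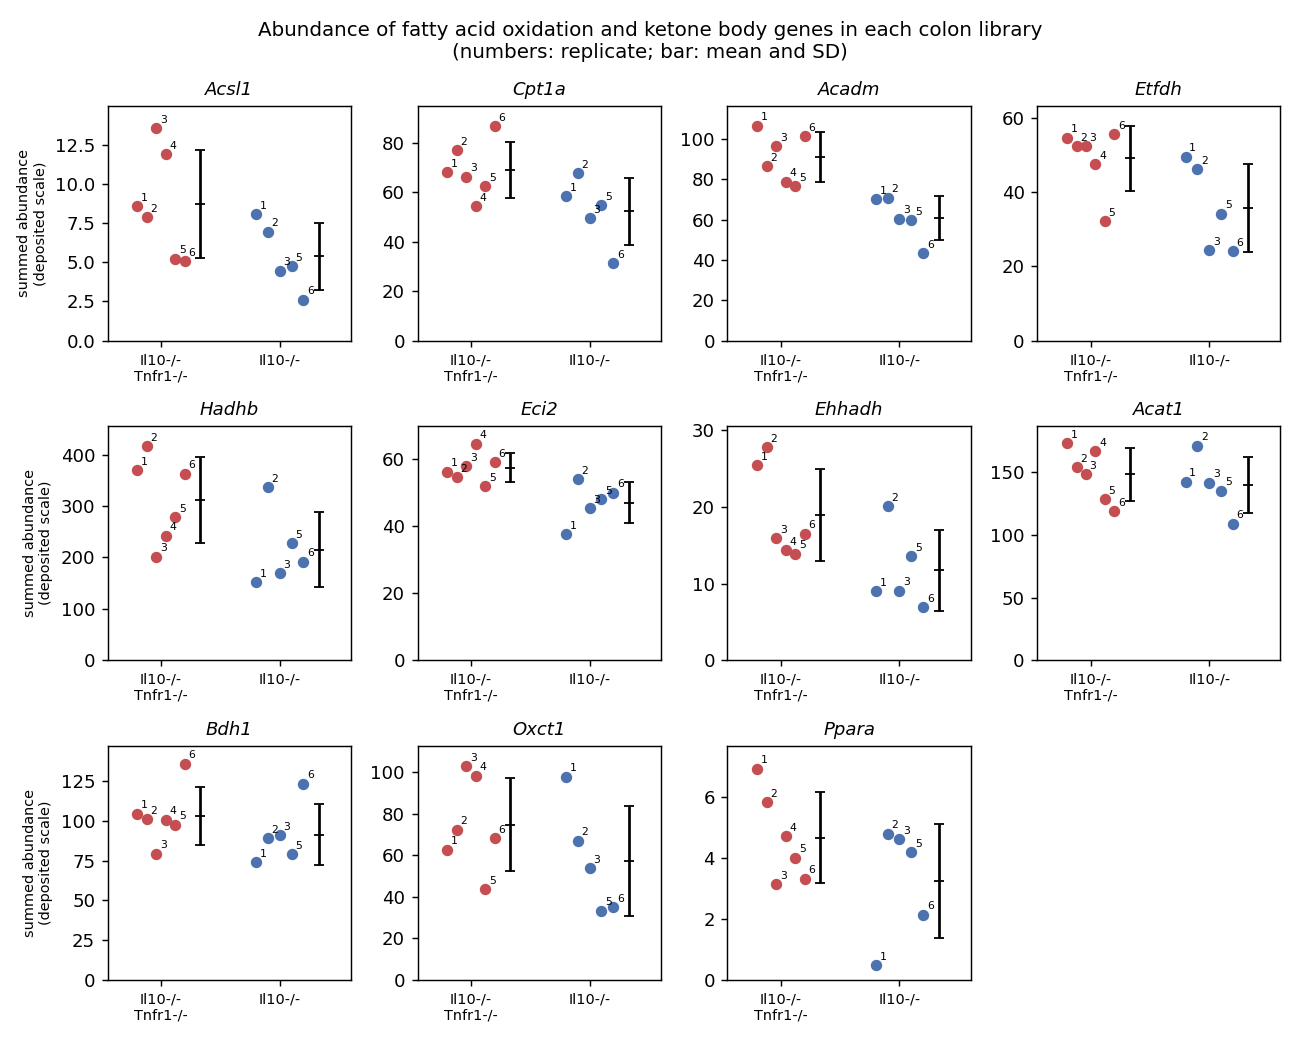
Summed abundance per library, on the deposited scale, of 11 of the 34 genes, with 6 Il10-/- Tnfr1-/- libraries (red) left of 5 Il10-/- libraries (blue), replicate numbers beside the points, and the mean and SD as a bar. Acadm is the gene without overlap, and Il10-/- replicate 1 is near 0 for Ppara (0.477).

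The wider pathway was described with 53 further genes, also listed with earlier results of these data known, of which 45 were tested. Of these, 29 had a higher mean in Il10-/- Tnfr1-/- colons and 16 a lower one, with a median log2 fold change of 0.18, beside 55.5% of all genes with a higher mean and an all-gene median of 0.05. At an unadjusted p under 0.05, 9 were higher, beside 4.74% of all genes, and 0 lower, beside 3.6%, and the smallest adjusted p was 0.536. Those for uptake and activation were Cd36, a fatty acid transporter (1.34 ± 0.52, log2 fold change and SE), Slc27a2, a very long-chain acyl-CoA synthetase and transporter (1.16 ± 0.32), Acsl3, a synthetase of lipid droplets (0.78 ± 0.26), and Acss1, the mitochondrial acetate synthetase (0.38 ± 0.15). The others were Crot, the peroxisomal carnitine octanoyltransferase (0.58 ± 0.23), Acot2, a mitochondrial thioesterase whose reads may be split with Acot1 (0.68 ± 0.30), the nuclear receptor Pparg (0.57 ± 0.24), and Angptl4 (0.94 ± 0.26) and Ucp2 (0.62 ± 0.27), both known targets of PPAR receptors. Slc27a2 was at 4.35, 6.004, 3.67, 1.69, 3.06 and 5.43 in Il10-/- Tnfr1-/- colons and at 0.768, 2.12, 1.499, 2.19 and 0.947 in Il10-/- colons, where Il10-/- Tnfr1-/- replicate 4 lay below 2 Il10-/- libraries. Angptl4 was at 2.89, 4.16, 3.53, 6.44, 2.46 and 3.47 in Il10-/- Tnfr1-/- colons and at 1.29, 2.38, 2.47, 1.42 and 1.11 in Il10-/- colons, where Il10-/- Tnfr1-/- replicate 5 lay just below 1 Il10-/- library. A transcript annotated as a nonsense-mediated decay transcript, not as protein coding, held 89.3% of the Angptl4 sum. Pdk4, which spares pyruvate when fat is burned, had 0.57 in Il10-/- replicate 1 against 3.26 to 21.6 in the other 10 libraries.

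Levels of the same gene differed between its transcripts. Transcripts called principal are those that the APPRIS annotation in the table marks as the main protein isoform, and they were summed apart from the others after the gene sums had been seen. Principal transcripts held 65.4% to 72.05% of the abundance of the 34 genes in Il10-/- Tnfr1-/- libraries. In Il10-/- replicates 1, 2, 3, 5 and 6 they held 72.9%, 68.5%, 60.3%, 64.5% and 52.1%. Over all genes with such a transcript, the shares were 67.2% to 73.7% in Il10-/- Tnfr1-/- libraries and 61.1% to 71.7% in Il10-/- libraries, lowest in Il10-/- replicates 3 and 6. Retained-intron transcripts held 10.1% and 9.74% of all abundance in these 2 libraries, against 5.56% to 7.98% in Il10-/- Tnfr1-/- libraries and 5.60% to 7.22% in the other Il10-/- libraries.

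Acadvl, the very long-chain dehydrogenase, differed in sign between its gene sum and its principal transcript. The principal transcript of 2168 bases was at 106, 87.9, 74.9, 76.8, 44.5 and 99.0 in Il10-/- Tnfr1-/- colons and at 55.2, 80.4, 42.5, 51.1 and 39.0 in Il10-/- colons. That is a log2 fold change of 0.60 ± 0.25 (SE, unadjusted p = 0.0327 in the fit of principal transcripts, adjusted p = 0.545). A retained-intron transcript of 538 bases held 37.5% of the gene and averaged 32.0 ± 33.7 in Il10-/- Tnfr1-/- colons and 78.5 ± 77.7 in Il10-/- colons (SD). The gene sum had a lower mean in Il10-/- Tnfr1-/- colons (log2 fold change -0.14, or 0.002 with equal library totals), while its principal transcript had a higher one.

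Etfb split in a similar way. Its principal transcript averaged 225 ± 62.5 in Il10-/- Tnfr1-/- colons and 209 ± 52.7 in Il10-/- colons (SD). Its other transcripts together averaged 85.7 ± 67.9 in Il10-/- Tnfr1-/- colons and 262 ± 278 in Il10-/- colons (SD), and reached 721 in Il10-/- replicate 6. With principal transcripts alone, the ratio of Etfa to Etfb was 0.709 ± 0.106 in Il10-/- Tnfr1-/- colons and 0.64 ± 0.246 in Il10-/- colons (SD). Cpt2 likewise had a principal mean of 41.7 ± 10.5 in Il10-/- Tnfr1-/- colons and 31.7 ± 10.05 in Il10-/- colons (SD). Its other transcripts averaged 48.3 ± 26.5 in Il10-/- Tnfr1-/- colons and 77.5 ± 54.3 in Il10-/- colons (SD).

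Bdh1 had a principal sum of 105, 88.9, 78.7, 101, 81.2 and 125 in Il10-/- Tnfr1-/- colons and of 72.1, 86.3, 51.4, 59.0 and 60.002 in Il10-/- colons. Here 4 of 6 Il10-/- Tnfr1-/- libraries lay above every Il10-/- library, and the log2 fold change was 0.55 ± 0.17 (SE, unadjusted p = 0.00796, adjusted p = 0.545, limma). Hsd17b10 went the other way, with principal means of 11.8 ± 12.4 in Il10-/- Tnfr1-/- colons and 27.1 ± 19.1 in Il10-/- colons (SD), and a gene sum that hardly differed. In the fit of principal transcripts, 24 of 33 members had a higher mean, beside 66.0% of 10910 genes. Acadsb was not tested there. The median log2 fold change in that fit was 0.31 for members and 0.16 for all genes. At an unadjusted p under 0.05, 8 members were higher, beside 5.84% of those genes, and 0 were lower, beside 2.1%. They were Acsl1, Acadvl, Acadm, Acad10, Hadha, Hadhb, Ehhadh and Bdh1, and 0 genes passed adjustment.

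**Figure D4:**
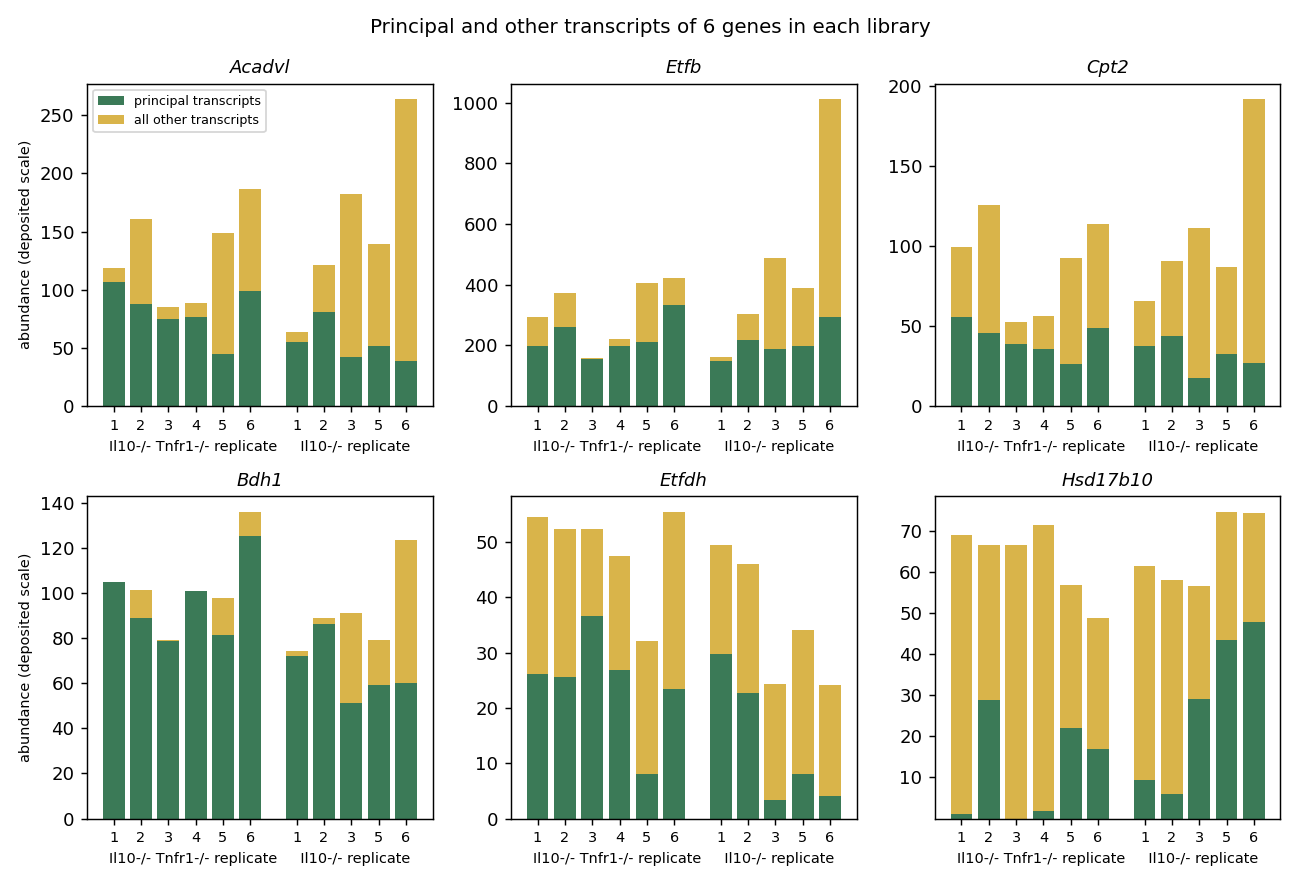
Abundance of principal transcripts (green) and of all other transcripts (yellow), stacked to the gene sum, for 6 genes in 6 Il10-/- Tnfr1-/- libraries (left) and 5 Il10-/- libraries (right), on the deposited scale. In Il10-/- replicate 6 the other transcripts reach 721 for Etfb, and for Acadvl, Etfb, Cpt2, Bdh1 and Etfdh they make up most of the gene there.

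Single transcripts were also fitted, 27895 in all. Of 82 member transcripts tested, 5 had an unadjusted p under 0.05 and a higher mean, beside 3.5% of all transcripts, and 0 a lower one, beside 2.77%. In the authors' deposited table, 104 member transcripts have a p-value, of which 9 (8.65%) are under 0.05, beside 6.83% of all 43192 transcripts with one, and the smallest q-value is 0.684. The authors' deposited table gives a log2 fold of 0.67 (p = 0.0169) for the principal Acadvl transcript. In the authors' deposited table the log2 fold is 0.98 (p = 0.0344) for the principal Etfdh transcript and 0.63 (p = 0.0397) for Ehhadh. For the principal Acadm transcript the authors' deposited table gives 0.45 (p = 0.0795), which is not under 0.05. The principal Hadhb transcripts are at 0.34 (p = 0.236) and 1.25 (p = 0.0864) in the authors' deposited table, also not under 0.05.

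Gene levels also followed base composition and length in some libraries. Over 13371 genes, the centred level correlated with the GC content of the leading transcript at Spearman's rho between -0.20 and -0.04 in Il10-/- Tnfr1-/- libraries. In Il10-/- replicates 1, 2, 3, 5 and 6 rho was -0.25, -0.27, 0.40, 0.20 and 0.30. The log2 fold change between genotypes had a rho of -0.28 with GC content over all these genes and of -0.28 over the 34. With transcript length the values were 0.35 and 0.40. These are descriptions across genes, which share their libraries. After removal of the GC trend in each library, 1 member, Acadm (log2 fold change 0.51, unadjusted p = 0.00682, limma), had an unadjusted p under 0.05, beside 3.93% of all genes higher, and after removal of both trends 4 did, beside 3.75%.

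**Figure D5:**
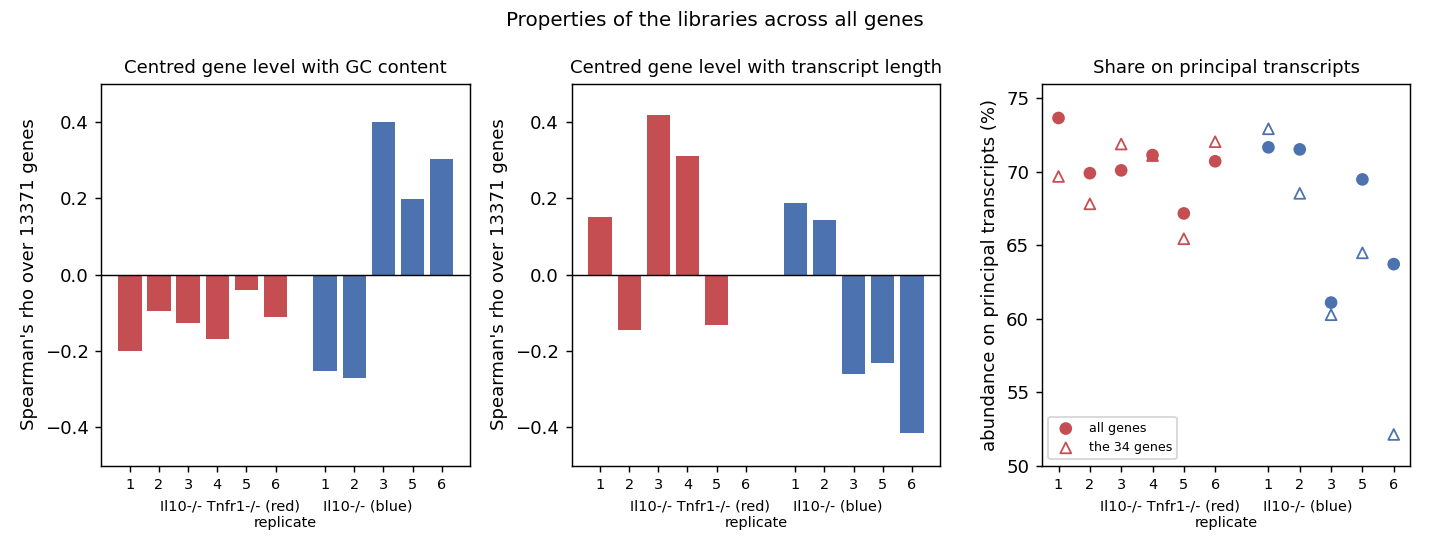
Left and middle, Spearman's rho over 13371 genes between a gene's centred log2 level and the GC content or length of its leading transcript, per library, Il10-/- Tnfr1-/- in red and Il10-/- in blue. Right, percent of abundance on principal transcripts for all genes (circles) and for the 34 genes (triangles). Il10-/- replicates 3, 5 and 6 have rho with GC of 0.40, 0.20 and 0.30, where the other libraries are below 0.

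Markers of several cell types differed between genotypes at an unadjusted p under 0.05, none past adjustment, and their part in the members' values was not tested beyond the 2 fits given here. Of 10 smooth muscle markers, all tested, 9 were higher in Il10-/- Tnfr1-/- colons at an unadjusted p under 0.05 (limma), with a median log2 fold change of 1.79 and Actg2, an enteric actin, at 2.57. Summed, they lay between 829.01 and 8021 in Il10-/- Tnfr1-/- libraries and between 185 and 3506 in Il10-/- libraries. Of 6 fibroblast markers, all 6 had a higher mean and 2 passed that threshold, Dcn (1.83) and Pdgfra (0.76), with sums of 184 to 1532 in Il10-/- Tnfr1-/- libraries and 47.2 to 361 in Il10-/- libraries. Neutrophil markers had sums of 5.07 to 55.03 in Il10-/- Tnfr1-/- libraries and 20.9 to 236 in Il10-/- libraries. Of the 3 tested of 8, S100a8 (-3.85) and S100a9 (-2.45) were lower at that threshold, and Cd177 was not (0.04 ± 0.45, SE). Cxcr2, Elane and Mpo were under 1 throughout. Retnlg, not tested, was above every Il10-/- library in 4 Il10-/- Tnfr1-/- libraries. Of the 7 macrophage markers, 7 had a higher mean and 1, C1qc (0.61), passed it, and of the 8 of enteric neurons and glia, 7 had a higher mean, with Gfap higher (0.97) and Ret lower (-1.36) at that threshold. Of 6 endothelial markers 5 had a higher mean and 0 passed it.

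Summed markers of colon epithelium, all 10 detected, ranged from 5093 to 48680 in Il10-/- Tnfr1-/- libraries and from 6518 to 12392 in Il10-/- libraries. The top value came from Il10-/- Tnfr1-/- replicate 6, which was also highest for 10 of the 34 genes. Of the 10 epithelial markers, 3 had a higher mean and 7 a lower one, with a median log2 fold change of -0.13. At an unadjusted p under 0.05 (limma), 0 differed. Cdx2, an intestinal transcription factor, was at 23.7 in Il10-/- replicate 1, against 62.7 to 258 in the other 10 libraries. The sum of all 10 markers in that library, 10647.5, lay within the range of the other Il10-/- libraries. Summed fat cell markers lay between 68.8 and 190.1 in Il10-/- Tnfr1-/- libraries and between 55.0 and 100.3 in Il10-/- libraries, with Lep and Ucp1 under 1 throughout. Most of that sum was Pparg, which is also listed above with the wider pathway, and Cidec. Adipoq (4.86), Cfd (10.7), Retn (2.79) and Plin1 (1.74) were over 1 in Il10-/- Tnfr1-/- replicate 4 and in no other library. Striated muscle markers summed to 14.7 to 102 in Il10-/- Tnfr1-/- libraries and 8.52 to 64.3 in Il10-/- libraries, with Actn3, Mb and Myh4 under 1, Ckm higher (2.13) and Tnni2 lower (-1.46) at that threshold. Hepatocyte markers summed to 14.2 to 63.4 in Il10-/- Tnfr1-/- libraries and 17.9 to 40.3 in Il10-/- libraries, with Alb, Ahsg and Serpina1a under 1. With the epithelial score as a covariate, 6 members had an unadjusted p under 0.05 and a higher mean, beside 8.23% of all genes. With the smooth muscle score 5 did, beside 1.95% of all genes, and 29 of 34 had a higher mean, beside 43.8%.

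Promoter sequences, from 250 bases before to 50 after a start, were matched in RefSeq (build GRCm38.p6) for 29 of the 34 genes, in 31 windows. They were searched on both strands for spelled motifs, which overlap in part. The nuclear receptor half-site AGGTCA was in 4 windows (12.9%, beside 16.3% of 32851 windows of all genes). The direct repeat of that half-site with 1 base between and the site TCAAGGTCA were in 0 windows (0.0396% and 0.423% of all). The GC box GGGCGG was in 22 windows (71.0%, beside 35.7% of all), CCAAT in 12 (38.7%, beside 37.4%) and TATAAA in 0 (13.6% of all). The 4 windows with a half-site are shown because they include Acadm and Cpt1a, with the half-site or its reverse complement in capitals and each read in the direction of its gene.
Acadm, chr3:153944834-153944893, minus strand: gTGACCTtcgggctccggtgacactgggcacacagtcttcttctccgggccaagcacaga
Cpt1a, chr19:3323180-3323239, plus strand: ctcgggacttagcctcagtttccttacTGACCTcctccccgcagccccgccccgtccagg
Acadvl, chr11:70015483-70015542, minus strand: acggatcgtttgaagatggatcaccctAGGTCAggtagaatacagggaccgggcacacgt
Echs1, chr7:140116472-140116531, minus strand: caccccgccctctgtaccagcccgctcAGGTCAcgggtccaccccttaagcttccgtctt
Windows are placed by RefSeq's start site, which for Cpt1a lies 967 bases inside the gene as GENCODE places it, and for the other 3 genes within 55 bases of its start. The half-site begins 249, 94, 87 and 83 bases before the RefSeq start in this order of genes. Their log2 fold changes, 0.59, 0.43, -0.14 and 0.10 in gene sums, differ in sign.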

How the data were processed

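RNA of 12 colons was sequenced. Per the labels' protocols, colons were homogenized in Trizol and single-end reads were taken from stranded mRNA libraries. Per the submitters' processing notes, CASAVA, kallisto and sleuth were used with build mm10, without versions or settings given. The deposited abundances are a never-negative signal, 1 value per transcript and library, which the authors scaled. On the log scale, the authors' deposited mean on a natural log scale less the log abundance had a slope of 1.15 on log transcript length over 28056 transcripts, as division by length leaves. The p-value, q-value and log2 fold columns are the authors' deposited comparison. Of the 12 samples, 11 match a column by title. 1 column matches no title and 1 Il10-/- sample (replicate 4) no column, and neither was used. Replicates are numbered in sample order.

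After 866 repeated transcript rows were dropped, 113193 transcripts were summed to 35688 genes. Coordinates, GC content and lengths are from GENCODE release M21 (98.4% of transcripts matched). The planned count test could not be applied to these values, so the test set for other units was used, limma 3.58.1 (R 4.3.3, data.table package at 1.17.8, trend and robust) on log2(value + 0.5) for genes over 1 in at least 5 libraries. P-values were adjusted by Benjamini and Hochberg's method, at a threshold of 0.05. Fold changes are Il10-/- Tnfr1-/- minus Il10-/- and understate changes of low genes. Limma was tested on simulated independent values with shifts larger than those of any member. That test does not cover changes of the size reported here. For single values, all 462 assignments of libraries gave an exact permutation p, two-sided. Values were given in every library for members with an unadjusted p under 0.05 or no overlap, for the member of smallest p in each of 9 pathway steps, and for Cpt1a, Bdh1, Oxct1, Acat1 and Ppara. The others shown so, and the transcript split, were chosen after their values were seen. The members and lists were chosen with earlier results of these data known. Of the wider pathway, 2 genes are not reported here.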

Additional observations from a re-analysis of the deposited data

Results flagged for a closer look

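Each genotype's libraries were checked for a sample far from the rest of its group, for 43 genes (the 34 members and the 9 genes of the wider pathway with an unadjusted p under 0.05), in 86 groups. A sample is named where its gap to the nearest other, divided by the range of the group, both taken on log2(value + 0.5), is above the 95% critical value of Dixon's test. Chance gives about 1 in 20 groups, and 5 were found. Levels below are on the deposited scale and gap ratios on the log2 scale. On untransformed values, tried after the data were seen, 7 groups pass, without Slc22a5 and with Acadl in Il10-/- replicate 1 (0.724), Decr1 in Il10-/- replicate 6 (0.731) and Acsl3 in Il10-/- Tnfr1-/- replicate 6 (0.628) added.

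Il10-/- replicate 1 was the low sample in 2 of the 5. Acaa2 was at 46.5 there and between 116.9 and 145 in the other Il10-/- libraries (gap ratio 0.807). Slc22a5 was at 9.88, against 17.7 to 21.5 (0.748). In Il10-/- replicate 5, Acad11 was high at 46.3, with the others between 38.3 and 39.7 (0.803). In Il10-/- Tnfr1-/- replicate 6, Etfa was high at 271, with the others between 133 and 152 (0.806). In Il10-/- Tnfr1-/- replicate 5, Etfdh was low at 32.1, with the others between 47.5 and 55.4 (0.715).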

How the results depend on the processing

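In all 28 alternatives 0 members passed an adjusted p of 0.05 and 0 were lower at an unadjusted p under 0.05. Members with a higher mean numbered 19 to 29. Over all genes, 1 passed adjustment after quantile normalization, and 0 to 2 when each library was left out in turn. Members higher at an unadjusted p under 0.05 were 5 as reported, beside 4.74% of all genes tested. They were 2 with median-ratio factors (3.59% of all genes), 9 with equal totals (5.1%) and 3 with no filter on low values (3.3%). With limma without trend and robust there were 2 (4.84%), and within titles that start with 1 there was 1 (0.472%). Principal transcripts gave 8 (5.84%), removal of the GC trend 1 (3.93%), and leaving out Il10-/- replicates 1 and 6 gave 1 (4.37%). There were 1 to 7 when each library was left out. Over all genes, those higher ran from 252 of 13561 without Il10-/- replicate 6 to 1491 without Il10-/- replicate 1, with 2 and 6 members. The 7 members were found without Il10-/- replicate 2 (6.53%). The median log2 fold change of members was 0.31 with principal transcripts and 0.06 to 0.29 in the others. Of 308 single-gene values, 301 kept their direction. Those turned round were Acat1 (0.09 as reported) at -0.058 with the smooth muscle score, -0.16 with the GC trend removed and -0.016 without Il10-/- replicates 1 and 6, and between -0.00068 and 0.16 when each library was left out. Oxct1 was -0.067 within titles that start with 1 and with the first digit as a covariate. Ppara was -0.011 without Il10-/- replicates 1 and 6. The cause was not tested. Principal transcripts, the GC and length trends, and leaving out 2 libraries were chosen after seeing the data.

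No paired analysis was possible because the labels give no replicate numbers that link the genotypes. Depth is unknown, so its limit on low genes such as Cpt1b and Ppara cannot be stated. With 6 against 5 animals, adjustment over 13561 genes left 0 calls, and 1131 had an unadjusted p under 0.05.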
